A study of Mus musculus with 12 samples.

Results

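The 31 genes described here encode enzymes, regulators and a carrier of cholesterol and fatty acid synthesis. They were listed by name by a rule that uses no measured value, though the list was drawn up with earlier results of these data known. The sterol branch holds 18 enzymes (Hmgcs1, Mvk, Pmvk, Mvd, Idi1, Fdps, Fdft1, Sqle, Lss, Cyp51, Tm7sf2, Msmo1, Nsdhl, Hsd17b7, Ebp, Sc5d, Dhcr7 and Acat2) and 5 regulators or carriers (Insig1, Srebf1, Srebf2, Scap and Stard4). The fatty acid branch holds 8 enzymes (Acly, Acaca, Fasn, Elovl6, Scd1, Scd2, Fads1 and Fads2). All 31 were found among the 38690 gene symbols of the deposited array results, Msmo1 under its older symbol Sc4mol.

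RNA came from skin keratinocytes of FVB/N mice at postnatal day 4, which were sorted by flow cytometry and measured on 12 Affymetrix MTA-1_0 arrays. Basal cells, labelled high, and suprabasal cells, labelled low, were each taken from wild-type and from bitransgenic mice, which gave 4 groups of 3 arrays. The labels name neither the 2 transgenes nor the promoter that drives them, nor the marker used for sorting; the series title names progerin, a shortened form of the nuclear envelope protein lamin A. Arrays are called here by the code in their titles. The 3 wild-type codes (X667_06, X682_11 and X721_08) and the bitransgenic codes X721_05 and X667_05 occur in both layers, whereas X722_07 occurs only among the bitransgenic basal and X682_05 only among the bitransgenic suprabasal arrays. The labels do not say whether a code is an animal or a pool, so each p-value reflects the spread among these arrays alone, and that spread may be technical. In sorted bulk samples, fewer cells of a type and less RNA per cell cannot be told apart.

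Cells build cholesterol from acetyl-CoA through mevalonate, farnesyl diphosphate, squalene and lanosterol, and branches of the same pathway supply the farnesyl group that is attached to lamin precursors. The transcription factors encoded by Srebf1 and Srebf2 switch on the genes of both branches when Scap escorts them out of the endoplasmic reticulum, and Insig1 holds that complex back when sterols are plentiful. In epidermis, cholesterol, ceramides and free fatty acids are made in the living layers and secreted to form the water barrier, and sebaceous glands are a further site of intense fatty acid synthesis.

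The start regions of 4 sterol enzyme genes are shown because 2 of them, Mvd and Lss, were called between wild-type layers, Msmo1 had the largest sterol branch difference there, and Hmgcs1 had none. Each runs 5′ to 3′ on the gene's strand, from 250 bases before to 50 bases after the annotated start, from RefSeq on GRCm38.p6. Capitals mark CCAAT or its reverse complement ATTGG, the motif bound by NF-Y, and matches to TCACNCCAC, letters of a classical sterol regulatory element, searched on both strands. The regions lie at chr8:122443373-122443672 on the minus strand (Mvd), chr10:76531355-76531654 on the plus strand (Lss), chr8:64733529-64733828 on the minus strand (Msmo1) and chr13:119690101-119690400 on the plus strand (Hmgcs1).
Mvd: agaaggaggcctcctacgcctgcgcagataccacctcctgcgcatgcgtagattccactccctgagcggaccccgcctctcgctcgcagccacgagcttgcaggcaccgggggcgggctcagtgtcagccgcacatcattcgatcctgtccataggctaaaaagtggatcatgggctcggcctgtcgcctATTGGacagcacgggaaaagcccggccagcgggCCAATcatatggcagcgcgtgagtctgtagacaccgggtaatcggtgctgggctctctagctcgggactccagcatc
Lss: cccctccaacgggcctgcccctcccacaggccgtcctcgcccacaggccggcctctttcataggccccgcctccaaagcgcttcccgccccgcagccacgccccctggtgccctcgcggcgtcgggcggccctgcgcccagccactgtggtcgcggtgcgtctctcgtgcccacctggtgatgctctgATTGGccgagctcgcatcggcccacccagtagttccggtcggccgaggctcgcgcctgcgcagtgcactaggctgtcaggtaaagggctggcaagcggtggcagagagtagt
Msmo1: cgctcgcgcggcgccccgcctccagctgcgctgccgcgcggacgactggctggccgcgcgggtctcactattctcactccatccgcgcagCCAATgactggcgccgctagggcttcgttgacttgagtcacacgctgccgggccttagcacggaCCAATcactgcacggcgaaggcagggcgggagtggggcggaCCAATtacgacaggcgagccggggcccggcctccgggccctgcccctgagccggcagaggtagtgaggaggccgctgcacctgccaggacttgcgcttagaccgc
Hmgcs1: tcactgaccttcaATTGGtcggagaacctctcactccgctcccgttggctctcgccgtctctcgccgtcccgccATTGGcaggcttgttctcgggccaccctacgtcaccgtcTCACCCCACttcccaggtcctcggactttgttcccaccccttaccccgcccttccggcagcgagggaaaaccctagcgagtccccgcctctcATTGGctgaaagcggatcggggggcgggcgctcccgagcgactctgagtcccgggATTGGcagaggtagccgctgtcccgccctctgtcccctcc
Of the 31 genes, 24 had an entry in the promoter table, with 30 start regions in all. CCAAT occurred in 14 of 18 start regions of sterol enzymes (77.8%), in 4 of 7 of the regulators and carriers (57.1%) and in 2 of 5 of the fatty acid enzymes (40%). It occurred in 37.4% of all 32851 promoters of the same length. TCACNCCAC matched only the Hmgcs1 region among these 30, apart from its CCAAT matches, and 1.24% of all promoters. A match is a description of the letters, not a binding site.

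The authors' deposited values are log2 signals per transcript cluster, the set of probes that stands for a gene. Array medians lay between 5.28 and 5.46. Within groups, arrays correlated at 0.979 to 0.994 across 65956 clusters, and no 2 arrays of a group were identical. As a mark of background, the 95th percentile of 5222 intronic control probe sets lay between 8.04 and 8.81 on the 12 arrays. By that mark, 24 of the 31 genes were above background on at least 1 array and 8 on every array, whereas all 31 exceeded the 95th percentile of 23 antigenomic control sets (6.29 to 7.18) on at least 1 array. Mvd, Lss, Pmvk and Fads2 are therefore given as differences in log2 signal with no fold between wild-type layers, where both groups were under the intronic mark on every array.

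The layer labels were set against marker genes. All 7 basal keratinocyte markers were higher in basal than suprabasal cells for each of the 5 codes that occur in both layers. None of them was called in either genotype (lowest limma adjusted p = 0.134, in wild type). Of the 7 suprabasal keratinocyte markers, all 7 had a mean difference below 0 in both genotypes, down to -2.20 for Ivl in wild type; 4 of 7 were lower in basal cells for each of the 5 codes, and none was called (lowest limma adjusted p = 0.0609). The suprabasal keratins Krt1 and Krt10 were at 12.28 or more on every basal array. For melanocyte markers, all 8 were lower in basal cells for each of the 5 codes. In wild type their median difference was -4.922 and 5 of 8 were called lower (lowest limma adjusted p = 0.0348), against 1.04% of all clusters. None was called in bitransgenic cells, where 0% of all clusters were called. The array X667_05 of the bitransgenic suprabasal group stood apart: its summed unlogged melanocyte marker signal was 2117.2, against 19999.7 and 30749.4 on the other 2. The wild-type suprabasal arrays summed to 9201.7 to 26285.3 and the 6 basal arrays to 555.7 to 1261.4. All 7 basal keratinocyte markers and all 5 markers of proliferating cells were highest of the bitransgenic suprabasal group on X667_05. In the wild-type suprabasal group all of these were highest on X667_06. These orders were not set against all clusters. Adipocyte, fibroblast and immune markers were above the intronic mark on none of the 12 arrays. Xist, the RNA of the inactive X chromosome, was at 4.09 to 4.28 on the 6 wild-type and both X721_05 arrays and at 10.69 to 11.08 on the other 4 bitransgenic arrays, so sex differed with genotype in part.

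**Figure D1:**
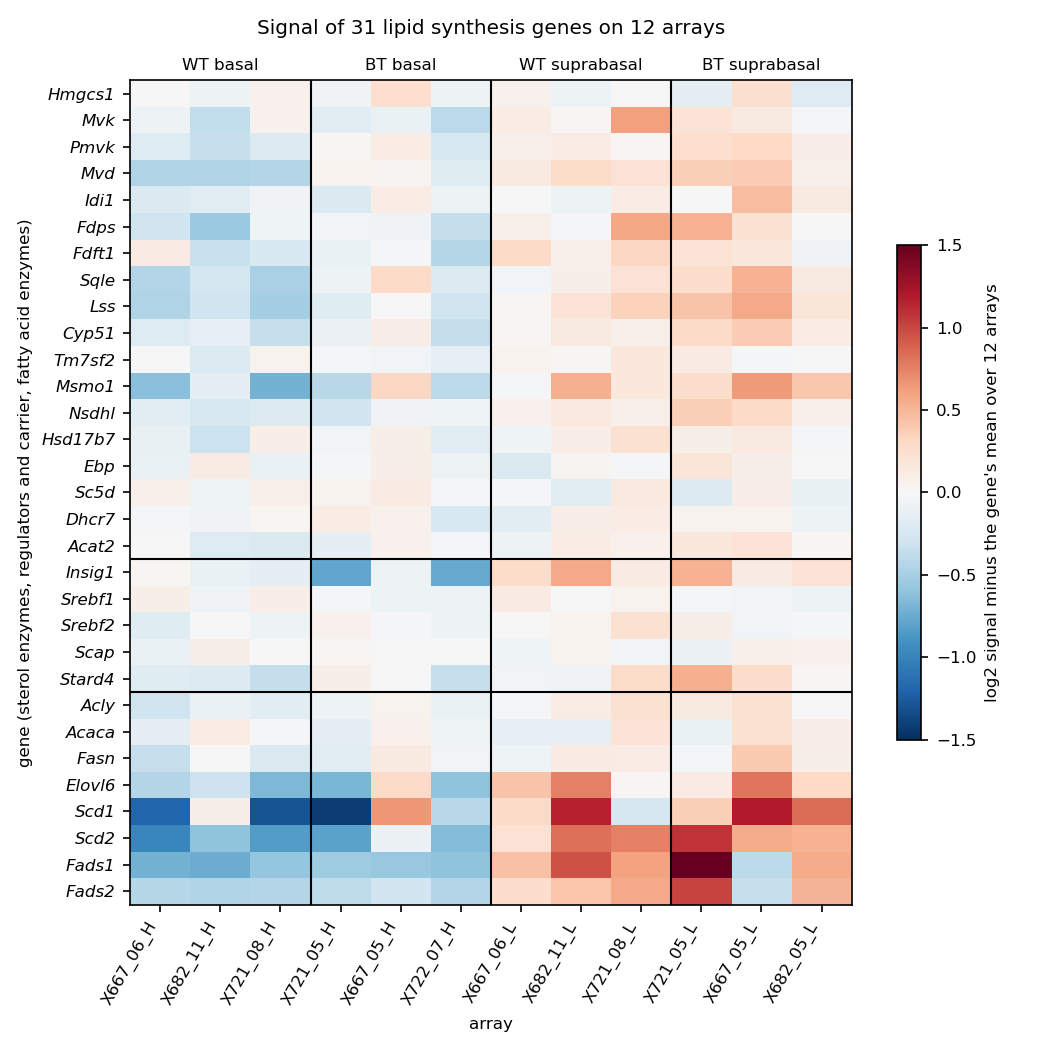
Log2 signal of each of the 31 genes (rows) on each of the 12 arrays (columns), minus that gene's mean over the 12 arrays; lines separate the 4 groups and the 3 branches. Suprabasal arrays are mostly red and basal arrays mostly blue, most deeply for Scd1, Scd2, Fads1 and Fads2 at the bottom. The bitransgenic basal array X667_05 is an exception and averages 0.046 above 0 over the 31 genes. The bitransgenic suprabasal array X667_05 is blue for Fads1 and Fads2, unlike the other 2 of its group.

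The first question was how the 2 layers differ in wild-type skin. Basal cells had lower signals than suprabasal cells for 3 of the 31 genes by limma at an adjusted p under 0.05: Mvd and Lss of the sterol branch and Scd2 of the fatty acid branch. No member was called higher. Among all 65956 clusters, 1.45% were called in either direction and 1.04% were called lower in basal cells. Beyond the calls, 26 of 31 differences were below 0, and for 16 genes the 3 basal arrays all lay below the 3 suprabasal arrays, as they did for 20.2% of all clusters. An unadjusted p under 0.05 was reached by 16 of 31, against 22.8% of all clusters. The median difference on the log2 scale was -0.298 for sterol enzymes, -0.183 for regulators and carriers and -0.862 for fatty acid enzymes, beside -0.047 for all clusters.

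Mvd makes isopentenyl diphosphate, the building block of all sterols. Its log2 signals were 7.31, 7.31 and 7.33 on the wild-type basal arrays and 7.90, 8.04 and 7.98 on the suprabasal arrays. The groups did not overlap, and the difference was -0.66 ± 0.091 (SE; limma adjusted p = 0.0338, n = 3 and 3). Lss folds squalene epoxide into lanosterol, the first sterol. It stood at 6.88, 7.03 and 6.83 in basal and at 7.35, 7.54 and 7.68 in suprabasal cells, again with all basal arrays below all suprabasal ones. Its difference was -0.61 ± 0.120 (SE; limma adjusted p = 0.0446).

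Msmo1, which removes methyl groups from lanosterol products, had the widest difference of the sterol branch. Its signals were 7.19, 7.67 and 7.11 in basal and 7.80, 8.35 and 7.98 in suprabasal cells. These groups did not overlap, yet the spread within each was larger than for Mvd, and the difference of -0.72 ± 0.221 (SE) missed the threshold (limma adjusted p = 0.101). Fdps makes farnesyl diphosphate, the donor of farnesyl groups. It read 9.47, 9.22 and 9.71 in basal and 9.85, 9.74 and 10.35 in suprabasal cells, a difference of -0.51 ± 0.188 (SE; limma adjusted p = 0.146) between groups that did not overlap. Without the suprabasal array X721_08 it was -0.33. Sqle, Pmvk, Nsdhl and Cyp51 also did not overlap, with differences of -0.48 (Sqle) to -0.30 (Cyp51 and Nsdhl). The enzymes Mvk, Fdft1, Idi1, Tm7sf2, Hsd17b7 and Acat2 overlapped between layers, at -0.38 (Mvk, -0.20 without the suprabasal array X721_08) to -0.12 (Tm7sf2). Hmgcs1, which commits acetyl-CoA units to the pathway, averaged 9.60 in both layers. Ebp, Sc5d and Dhcr7, which act at the end of the pathway, lay within 0.04 of 0.

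**Figure D2:**
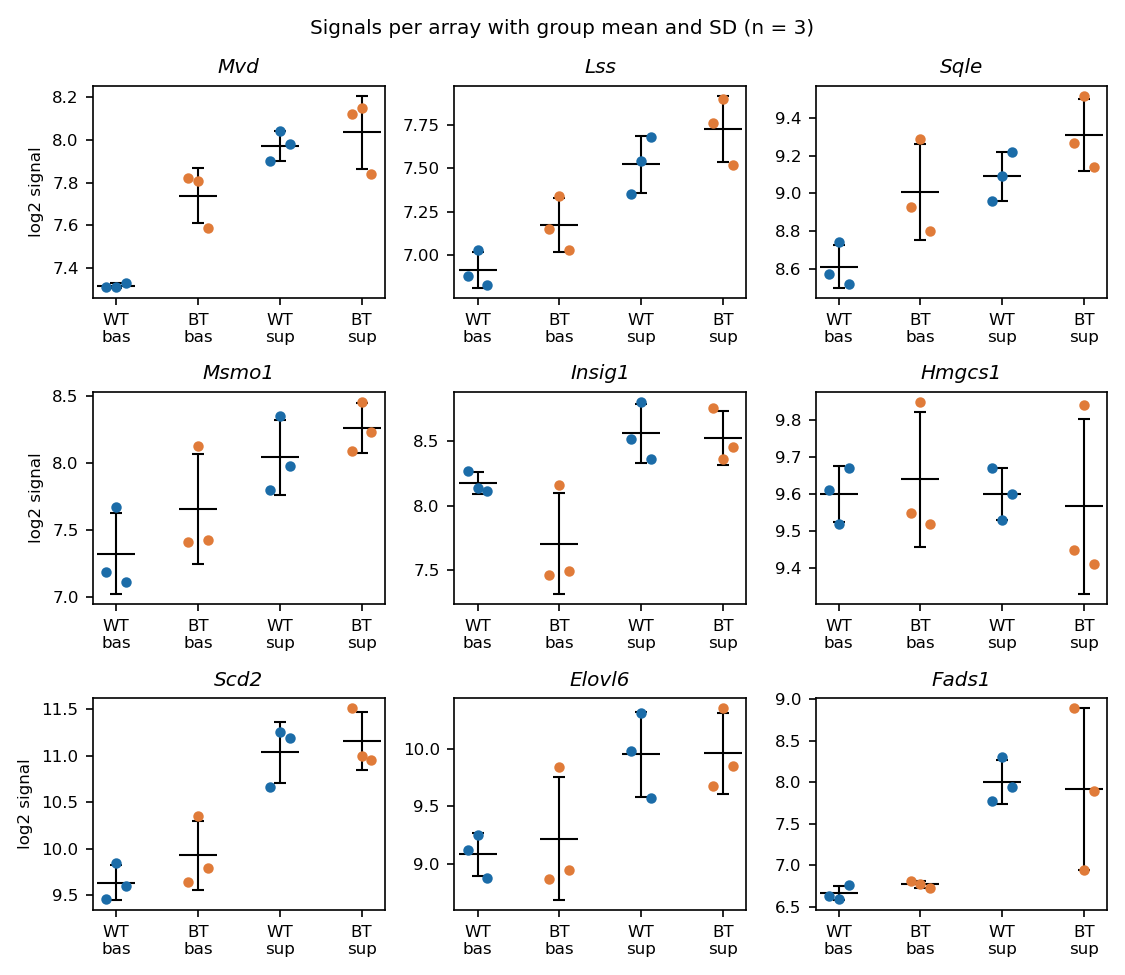
Log2 signal of 9 of the genes on each array (points; blue wild type, orange bitransgenic) by group, with the group mean and SD over 3 arrays; the vertical scale differs between genes and does not start at 0. Mvd, Lss, Scd2 and Fads1 are low on the wild-type basal arrays and high on the wild-type suprabasal arrays, Hmgcs1 is alike in all groups, and Fads1 spreads from 6.95 to 8.90 in the bitransgenic suprabasal group.

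Among the regulators, no gene was called between wild-type layers. Insig1, the sterol-sensing retention factor, stood at 8.27, 8.14 and 8.11 in basal and 8.52, 8.81 and 8.36 in suprabasal cells. Those arrays did not overlap, with a difference of -0.39 ± 0.186 (SE; limma adjusted p = 0.240). Srebf2, the factor most closely tied to sterol genes, gave 9.58, 9.75 and 9.68 against 9.76, 9.81 and 9.99, and its difference was -0.18 ± 0.077 (SE; limma adjusted p = 0.189), or -0.12 without the suprabasal array X721_08. Its paralogue Srebf1, tied more to fatty acid genes, differed by -0.01 ± 0.059 (SE), and Scap by 0.01 ± 0.067 (SE). The sterol carrier gene Stard4 did not overlap either, at -0.31 ± 0.149 (SE; limma adjusted p = 0.244), or -0.20 without the same array, with all its signals under the intronic mark.

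In the fatty acid branch the 5 largest differences were those of the desaturases and the elongase. Scd2, a stearoyl-CoA desaturase, was at 9.46, 9.84 and 9.60 in basal and 10.66, 11.26 and 11.19 in suprabasal cells. Its signal was thus 2.645-fold higher in suprabasal cells, a log2 difference of -1.40 ± 0.224 (SE; limma adjusted p = 0.036). The paralogue Scd1 read 8.73, 10.00 and 8.62 against 10.21, 11.07 and 9.66. Its mean difference of -1.20 was nearly as large, but X682_11 was high in both layers, the groups overlapped and the error was 0.544 (SE; limma adjusted p = 0.222).

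Fads1 and Fads2 introduce the double bonds of long polyunsaturated fatty acids. Fads1 gave 6.63, 6.60 and 6.76 in basal and 7.78, 8.30 and 7.94 in suprabasal cells. Basal values were tight and all below the suprabasal ones, with a difference of -1.34 ± 0.363 (SE; limma adjusted p = 0.0784). Fads2 gave 6.21, 6.18 and 6.20 against 6.90, 7.05 and 7.20, at -0.85 ± 0.255 (SE; limma adjusted p = 0.095). A second, 3′ cluster, which the platform annotation but not the deposited results file assigns to Fads2, showed the same order, from 4.55 to 4.64 in basal and from 6.68 to 7.29 in suprabasal cells. Elovl6, which lengthens palmitate, read 9.12, 9.25 and 8.88 in basal and 9.98, 10.31 and 9.57 in suprabasal cells, without overlap (-0.87 ± 0.275 SE; limma adjusted p = 0.107). Acly, which supplies cytosolic acetyl-CoA, differed by -0.30 without overlap, whereas Fasn, the fatty acid synthase (-0.24), and Acaca, which makes malonyl-CoA (0), overlapped.

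Both layers of 1 code were compared within the code, since same-code arrays deviated together from their group means. With the code as a fixed replicate block, limma called 9 of 31 genes lower in wild-type basal cells: Mvd, Fdps, Lss, Msmo1, Elovl6, Scd1, Scd2, Fads1 and Fads2. In that fit 1.99% of all clusters were called and 1.06% were called lower. When the code entered as a random block, the 5 called genes were Mvd, Sqle, Lss, Scd2 and Fads1, where 5.46% of all clusters were called and 4.12% lower. No member was called when only the 6 wild-type arrays entered a fit without a block, or by the unpaired test that the series design names. The fixed-block fit held the same 6 arrays. The authors' deposited table has no member at q under 0.05 in any comparison; its lowest q in a member was 0.0995, for Mvd.

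The same comparison in bitransgenic skin gave no call among the 31 genes by limma (lowest adjusted p = 0.605), as 0% of all clusters were called. Its differences nevertheless had the same sign for most genes: 29 of 31 were below 0, and 10 genes did not overlap with basal lower, as did 4.27% of all clusters. An unadjusted p under 0.05 was reached by 13 of 31, against 7.45% of all clusters, and the design's unpaired test called 0 after adjustment. The median difference was -0.273 for sterol enzymes, -0.023 for regulators and carriers and -0.753 for fatty acid enzymes, beside 0.02 for all clusters. No test separated the 2 genotypes in this respect: the genotype by layer interaction called 0% of clusters and no member, and only Mvd had an unadjusted p under 0.05 (0.36 ± 0.129 SE; limma adjusted p = 0.427).

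**Figure D3:**
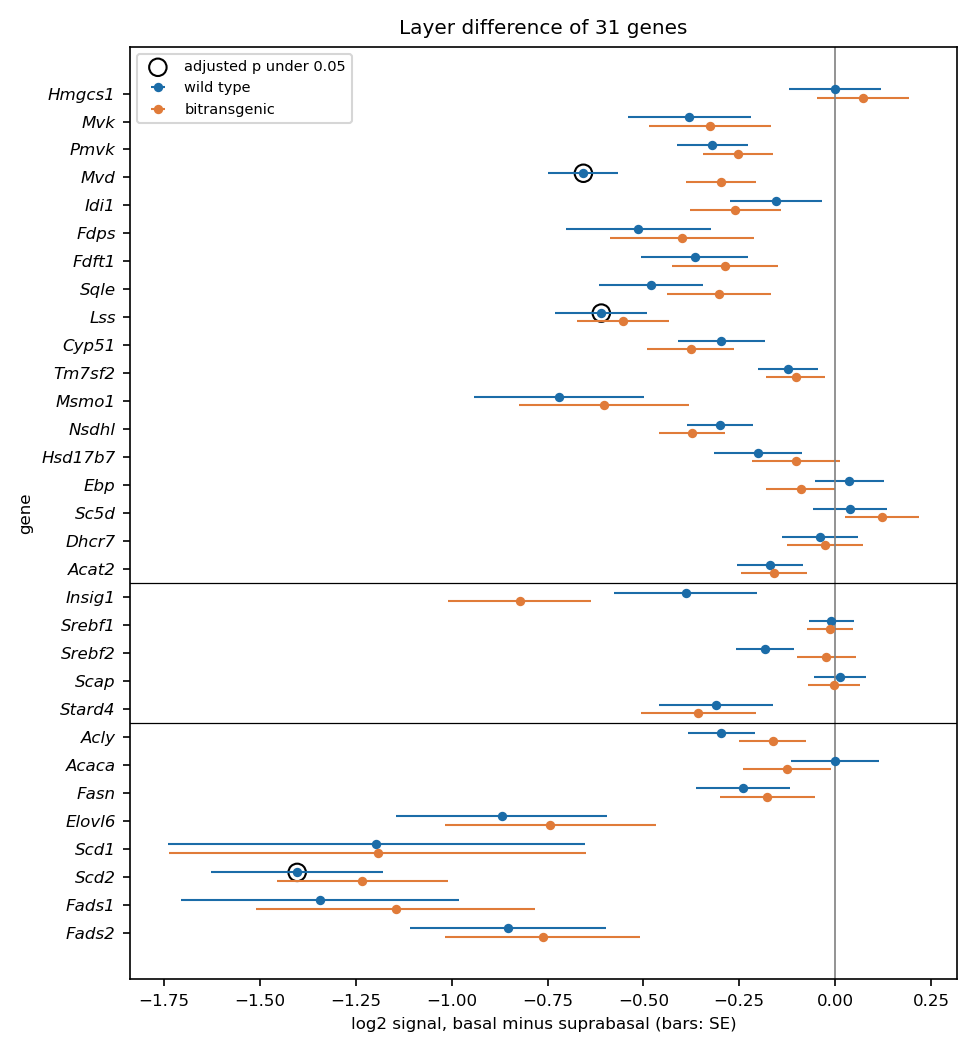
Difference in mean log2 signal, basal minus suprabasal, for each of the 31 genes in wild-type (blue) and bitransgenic (orange) skin, with the SE of the limma fit; circles mark an adjusted p under 0.05. Most points lie left of 0 in both genotypes, down to -1.40 for Scd2 in wild-type skin, and the 3 circled points are Mvd, Lss and Scd2 in wild type.

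Insig1 had the largest non-overlapping difference of the regulators in bitransgenic skin. It was at 7.46, 8.16 and 7.49 on the basal arrays (X721_05, X667_05 and X722_07) and at 8.76, 8.36 and 8.46 on the suprabasal arrays (X721_05, X667_05 and X682_05). The difference was -0.82 ± 0.186 (SE; limma adjusted p = 0.605), and the basal array X667_05 lay nearer to the suprabasal arrays than to its own group. Cyp51, which demethylates lanosterol, read 8.31, 8.49 and 8.04 against 8.68, 8.78 and 8.51 (-0.38 ± 0.113 SE). Fdps read 9.73, 9.72 and 9.41 against 10.29, 10.00 and 9.77 (-0.40 ± 0.188 SE). Neither pair of groups overlapped, and the limma adjusted p was 0.605 for Cyp51 and 0.683 for Fdps. Without the suprabasal array X721_05 the Fdps difference was -0.27. Lss (-0.55), Nsdhl (-0.37), Mvk (-0.33), Mvd (-0.30) and Tm7sf2 (-0.10) were the other sterol enzymes without overlap. In the fatty acid branch, Scd2 was at 9.64, 10.35 and 9.79 in basal and 11.52, 11 and 10.96 in suprabasal cells, again without overlap (-1.23 ± 0.224 SE; limma adjusted p = 0.605).

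Fads1 and Fads2 depended on which suprabasal array was left out. Fads1 read 6.81, 6.77 and 6.73 in bitransgenic basal cells and 8.90, 6.95 and 7.90 in suprabasal cells, and Fads2 read 6.25, 6.35 and 6.19 against 7.65, 6.29 and 7.14. Over all arrays the difference was -1.15 ± 0.363 (SE; limma adjusted p = 0.605) for Fads1, whose groups did not overlap, and -0.76 ± 0.255 (SE; limma adjusted p = 0.605) for Fads2, whose groups did. In both genes the suprabasal array X667_05, the one low in melanocyte markers, was near the basal arrays. Dct, a melanocyte pigment enzyme, was at 9.14 on that array and at 12.98 and 12.29 on the other 2. Without it, limma called both genes lower in bitransgenic basal cells, Fads1 by -1.63 ± 0.244 (SE; adjusted p = 0.0435) and Fads2 by -1.13 ± 0.138 (SE; adjusted p = 0.0269), in a fit that called 0.191% of all clusters and 0.176% lower. Without the suprabasal array X721_05 instead, the differences were -0.66 (limma adjusted p = 0.983) for Fads1 and -0.45 for Fads2. The 8 melanocyte markers were the lowest of their group on X667_05, and the part of melanocytes in the Fads1 and Fads2 signals was not tested. All 7 basal keratinocyte markers were the highest of their group on that array, and the part of basal cells was not tested either. The sterol enzyme median without that array was -0.205.

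Scd1 and Elovl6 followed another set of arrays. In bitransgenic cells Scd1 was at 8.50, 10.57 and 9.50 in basal and 10.28, 11.11 and 10.76 in suprabasal cells. The Scd1 difference of -1.19 ranged from -1.72 without the basal array X667_05 to -0.68 without the basal array X721_05. Elovl6 was at 8.87, 9.84 and 8.95 against 9.68, 10.36 and 9.85. Both genes were highest of their group on X682_11 in wild-type and X667_05 in bitransgenic cells, in both layers. On the basal arrays X682_11 and X667_05 and on the suprabasal array X682_11, 9 of 10 sebocyte markers were also the highest of their group, and 10 of 10 were on the suprabasal array X667_05. Summed sebocyte marker signal ranged from 622.5 to 1483.6 in wild-type basal, 705.7 to 2133.2 in bitransgenic basal, 980.2 to 2825.5 in wild-type suprabasal and 1698 to 3245.8 in bitransgenic suprabasal cells, and 0 to 4 of the 10 were above the intronic mark on an array. All 10 sebocyte markers had a mean difference below 0 between layers in both genotypes, with a median of -0.805 in wild-type and -0.775 in bitransgenic cells. For 8 of 10 the basal signal was lower in every code that occurs in both layers, as for 10.8% of all clusters. None was called (lowest limma adjusted p = 0.0624, in wild type). The sebocyte markers overlap in function with the genes described here, and their part in these signals was not tested. A 30-probe cluster on the strand opposite to Scd1, which has no symbol in the deposited results file and is assigned to Scd1 by the platform annotation, was not used; its signals ran from 6.53 to 8.34.

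**Figure D4:**
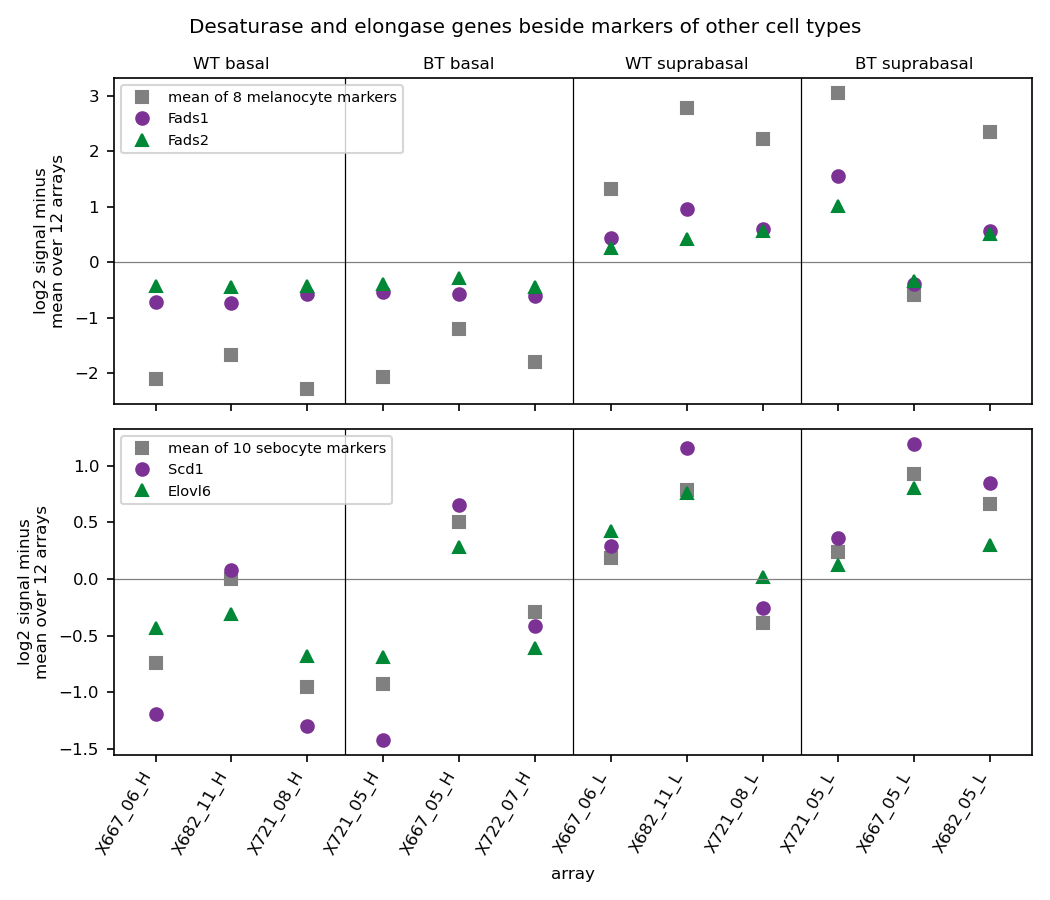
Log2 signal minus the mean over 12 arrays for Fads1 and Fads2 beside the mean of 8 melanocyte markers (top), and for Scd1 and Elovl6 beside the mean of 10 sebocyte markers (bottom), array by array. In the top panel the bitransgenic suprabasal array X667_05 is low for the markers and both genes; in the bottom panel X682_11 and X667_05 are the highest of their groups in both layers.

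Within the 5 codes that occur in both layers, 21 of 31 genes were lower in basal cells in every code, as were 10.8% of all clusters. These were 13 of 18 sterol enzymes, 2 of 5 regulators and carriers and 6 of 8 fatty acid enzymes, and no member was higher in basal cells in every code. The median difference of the sterol enzymes was between -0.37 and -0.20 in the 5 codes. That of the fatty acid enzymes was between -1.105 and -0.775 in 4 codes and -0.215 in X667_05. Markers of proliferating cells moved the other way with the layer: all 5 were higher in basal cells in every code, and 4 of 5 were called in wild type. Their part in the layer differences of the lipid genes was not tested.

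The other question was whether the transgenes altered these genes within a layer. In basal cells limma called 0 of 31 genes between bitransgenic and wild-type arrays, as 0% of all clusters were called. An unadjusted p under 0.05 was reached by 4 genes (Mvd, Sqle, Insig1 and Pmvk), against 13.1% of all clusters, and the design's unpaired test called 0 after adjustment. Only Mvd and Sqle did not overlap, both with the bitransgenic arrays higher, whereas 16.8% of all clusters did not overlap in either direction. Mvd was at 7.82, 7.81 and 7.59 in bitransgenic against 7.31, 7.31 and 7.33 in wild-type basal cells, a difference of 0.42 ± 0.091 (SE; limma adjusted p = 0.195). Sqle, which epoxidizes squalene, was at 8.93, 9.29 and 8.80 against 8.57, 8.74 and 8.52 (0.40 ± 0.136 SE; limma adjusted p = 0.293), and its difference was 0.26 without the bitransgenic array X667_05. Insig1 went the other way, at -0.47 ± 0.186 (SE; limma adjusted p = 0.338), with arrays X721_05 and X722_07 low and X667_05 within the wild-type range. The median difference was 0.078 for sterol enzymes and 0.142 for fatty acid enzymes, beside 0.04 for all clusters. Without the bitransgenic array X667_05 these medians were 0.0067 and 0.0525, and with a covariate for Xist the fatty acid median was 0.071.

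In suprabasal cells limma called 0 of 31 genes and 0% of all clusters, the design's unpaired test called 0, and no member reached an unadjusted p under 0.05, against 5.22% of all clusters (lowest adjusted p = 0.866). Srebf1 alone did not overlap, at 8.22, 8.20 and 8.16 in bitransgenic and 8.36, 8.24 and 8.29 in wild-type cells, a difference of -0.10 ± 0.059 (SE; limma adjusted p = 0.866). Groups did not overlap for 12.3% of all clusters. Without the array X667_05 limma again called no member between genotypes or for the interaction. The median difference was 0.08 for sterol enzymes and 0.055 for fatty acid enzymes, beside -0.03 for all clusters. Leaving out 1 array moved the sterol median between 0.0342 (without wild-type X667_06) and 0.1633 (without bitransgenic X682_05). It moved the fatty acid median between -0.0133 (without wild-type X667_06) and 0.1117 (without bitransgenic X667_05), and with a covariate for Xist that median was -0.014. Arrays that share the first number of their code deviated together across genotypes in suprabasal cells (r of 0.308, 0.333 and 0.485, beside a median of -0.117 for arrays of different first number), though not in both pairs of basal cells (0.229 and -0.157). With that number as a fixed replicate block, limma called 0% of all clusters and no member in either layer. The basal fit held only arrays X667_06, X721_08, X667_05 and X721_05, because X682_11 and X722_07 had no partner in the other genotype. It thus rests on fewer arrays than the suprabasal fit, which kept every array. An unadjusted p under 0.05 was reached by 1 of 31 members in suprabasal cells, against 8.31% of all clusters. In the basal fit it was reached by 6 of 31, against 10.7%. The members on the X chromosome, Nsdhl and Ebp, differed by 0.14 and 0.15 in suprabasal and by 0.07 and 0.03 in basal cells, and neither was called.

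**Figure D5:**
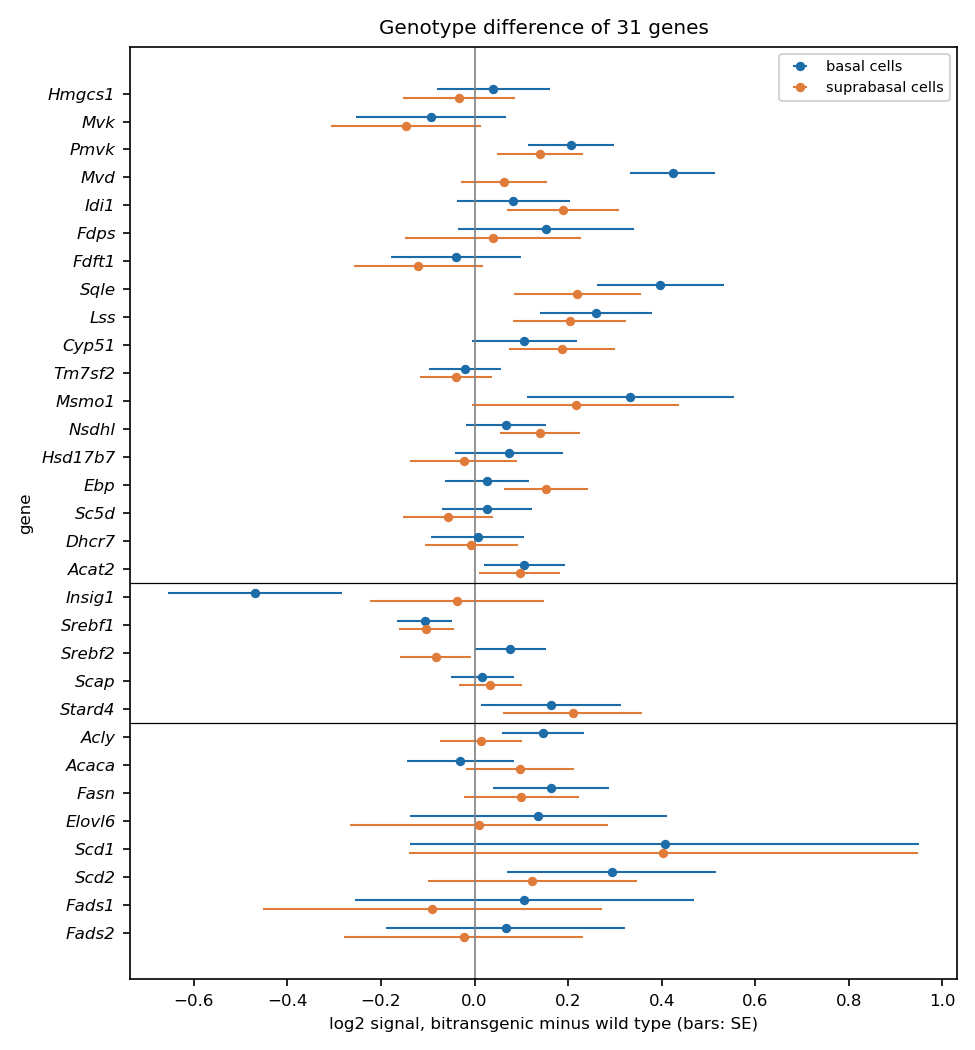
Difference in mean log2 signal, bitransgenic minus wild type, for each of the 31 genes in basal (blue) and suprabasal (orange) cells, with the SE of the limma fit. Points scatter on both sides of 0 with none past the adjusted threshold; Mvd and Sqle lie right of 0 and Insig1 left of 0 in basal cells, and Scd1 has the widest errors.

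Arrays of a group also differed among themselves. Among the bitransgenic basal arrays X667_05 was the highest of the 3 for 22 of 31 genes and X722_07 the lowest for 20. In the bitransgenic suprabasal group X682_05 was the lowest for 18 genes and X667_05 the highest for 17. Sterol enzymes took part in the bitransgenic basal order, 14 of 18 being highest on X667_05. Wild-type arrays were ordered too. In the suprabasal group X667_06 was the lowest for 18 genes and X721_08 the highest for 15. In the basal group X682_11 was the lowest for 13 and the highest for 13. These counts were not set against all clusters.

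Other genes of the 2 pathways were taken from lists. None of 7 genes that use isoprenoids, none of 12 that handle or sense sterols and none of 22 measured genes of 23 listed for fatty acid supply, elongation and esterification was called by limma in any of the 5 comparisons. Between wild-type layers 1.45% of all clusters were called, and an unadjusted p under 0.05 was reached by 1 of 7, 5 of 12 and 9 of 22, against 22.8% of all clusters. Me1, the malic enzyme that supplies NADPH for lipid synthesis, averaged 7.01 ± 0.597 (SD) in wild-type basal and 8.67 ± 0.297 (SD) in suprabasal cells (-1.67 ± 0.388 SE; limma adjusted p = 0.060). Elovl4, which makes the very long acyl chains of barrier ceramides, and Dgat2, which makes triglycerides, differed by -1.17 and -1.15 (limma adjusted p = 0.0653 and 0.0652). Insig2, the relative of Insig1, differed by -0.45 (limma adjusted p = 0.0807). Between bitransgenic layers, 7 of the 22 genes of the fatty acid list were lower in basal cells without overlap and 1 was higher. Among all clusters 4.27% were lower without overlap there. The 3 largest were Me1 (-1.46), Dgat2 (-0.90) and Elovl4 (-0.69), with limma adjusted p of 0.605, 0.605 and 0.639. Ggps1, which makes geranylgeranyl diphosphate, stood opposite, at 0.20 between wild-type layers (limma adjusted p = 0.181), and its genotype difference in suprabasal cells was 0.31 (limma adjusted p = 0.866). Between genotypes in basal cells, 2 genes of the sterol list were higher and 3 lower in bitransgenic cells without overlap, as were 2 and 2 of the fatty acid list. Among all clusters, 16.8% did not overlap in that comparison in either direction. Lower were Mylip, a ubiquitin ligase that acts on lipoprotein receptors (-0.52), and Slc25a1, the mitochondrial citrate carrier (-0.31). So were Mbtps1, a protease that cuts the Srebf proteins (-0.30), and Tecr, a reductase of fatty acid elongation (-0.17). Their limma adjusted p was 0.277, 0.204, 0.215 and 0.358 in that order. Higher were Sult2b1, a cholesterol sulfotransferase (0.45), and Acss2, which makes acetyl-CoA from acetate (0.17), with limma adjusted p of 0.365 and 0.476.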

How the data were processed

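Per the submitters' processing notes, the deposited log2 values came from RMA in Affymetrix Expression Console, with mm10 as the build; annotation is NetAffx build 34 per the file headers. RMA equalizes the arrays' distributions, so a change common to most genes would not show. The deposited table also gives signed fold changes (a score, negative where the first group is lower), p-values and q-values, per the file headers.

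Of 72688 probe sets, 6732 controls (9.26%) were left out. Where a gene had several clusters the brightest stood for it. In the platform annotation 3 clusters also list another gene: Tm7sf2 (with Vps51), Srebf1 (with Mir6922) and Scd2 (with Mir5114). One limma 3.58.1 fit (R 4.3.3) of 4 group means gave all comparisons, with Benjamini-Hochberg adjustment over 65956 clusters and a threshold of 0.05. It was tested on simulated data. Deviations of same-code arrays gave r of 0.269, 0.533 and 0.37 (wild type) and of 0.136 and 0.241 (bitransgenic), so blocked values are given; the pairing comes from the title codes. Named are members called anywhere and, per comparison and branch, the 2 largest without overlap and above background, with paralogues. Listed pathway genes were named from the 3 largest without overlap per list and comparison, and not all of these are given. The intronic mark only describes signals and filtered no cluster. The number of arrays limits precision. The members, lists and tests were chosen with earlier results of these data known. The alternatives tried included other scalings, blocks, fits and arrays left out.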

Additional observations from a re-analysis of the deposited data

How the results depend on the processing

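The call of 3 members between wild-type layers depended on the fit. It was 9 with the title code as a fixed replicate block and 5 with it as a random replicate block. It was 0 with only the 2 groups compared and no block, or with the unpaired test of the series design. Leaving out 1 array at a time gave 0 to 5 members. The count was 0 without the wild-type basal or suprabasal arrays X682_11 or X721_08 (4 fits) or the bitransgenic basal array X721_05. It was 1 (Mvd) without the bitransgenic basal array X722_07 or suprabasal array X682_05, and 5 (with Fads1 and Fads2) without the bitransgenic suprabasal array X721_05 or X667_05. A bitransgenic array enters this contrast only through the shared spread. In bitransgenic skin the count was 0 to 2 on leaving out 1 array, with 2 only without the suprabasal array X667_05. The genotype and interaction counts were 0 in every alternative run. The title code as a fixed replicate block gives no genotype contrast within a layer. There the first number of the code was the fixed replicate block (count 0), an alternative chosen after seeing the data. In basal cells it left out arrays X682_11 and X722_07, whose first numbers do not occur in both genotypes of that layer. The interaction was run with the random block only. Leaving out 1 array moved the difference by over 1.5 times or across 0 for 13 of 31 members between wild-type layers, 21 between bitransgenic layers, and 26 (basal) and 28 (suprabasal) between genotypes. Counting the reported fit, Mvd was called in 17 of 24 settings, Scd2 in 14 of 23 and Lss in 10 of 24, and none of the 3 differences changed sign in these settings. Centring each array, cyclic loess and a covariate for Xist each left 2 calls, Mvd and Scd2. The median of the regulators between wild-type layers was -0.0867 after centring and -0.2831 after loess; the cause was not tested. Mvd and Lss were under the intronic mark on all wild-type arrays, so their differences rest on dim signals.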
